A study of Mus musculus with 6 samples.

Results

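The circadian clock genes are taken here as 10 genes: Arntl, Clock, Npas2, Per1, Per2, Per3, Cry1, Cry2, Nr1d1 and Dbp. They were found as the probe sets annotated to exactly 1 of these symbols, which gave 23 probe sets of 45037 on the array, a probe set being a group of short oligonucleotides that reports on a transcript. Every gene had at least 1 probe set. Of the 23, 16 passed the brightness filter and covered 9 of the 10 genes, while the 6 probe sets of Per3 and 1 of the 3 of Per2 were too dim. Values come from 6 liver pools: 3 of the Nrf2 ko genotype and 3 of the Nrf2 wt genotype, all on the C57B/SV129 strain background, from mice 10 weeks old, with RNA of 3 animals in each pool. All 6 pools share tissue, strain and age, and the labels name no treatment or surgery. Pooling hides the spread between animals, the labels do not say whether pools shared animals, and p-values measure the spread between pools. The sources used here give no hour of collection, light schedule, feeding state or sex of the animals.

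The mammalian clock is a transcriptional loop. ARNTL (also called BMAL1) pairs with CLOCK or its relative NPAS2 and switches on the Per and Cry genes through E-box sequences, and the PER and CRY proteins then hold that pair back. In a second loop the nuclear receptor NR1D1 (REV-ERB alpha) represses Arntl, Npas2 and Cry1 through ROR elements, which ROR receptors activate. Dbp encodes a transcription factor that carries the rhythm to outputs through D-boxes. In mouse liver Arntl and Npas2 transcripts peak near the end of the night, when Nr1d1, Dbp and the Per transcripts are low, so the pattern over these genes changes with the hour at which a liver is taken. Per1 and Per2 also answer to hormones, feeding and body temperature.

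The promoters of 4 members are shown because their sequences hold the element types of these loops and their transcripts differ in how far they moved between pools. Promoter windows were taken from RefSeq (build GRCm38.p6), each holding 250 bases before and 50 bases after a transcription start, and 9 of the 10 members matched. The windows lie at chr7:113207215-113207514 on the + strand for Arntl, chr11:69098699-69098998 on the + strand for Per1, chr10:85185005-85185304 on the - strand for Cry1 and chr4:151044616-151044915 on the - strand for Per3. For Arntl and Per1 this is the first of 2 windows in the table. Capitals mark matches to an E-box (CACGTG), an E-box variant (CACGTT), a ROR element (TNGGTCA) or a D-box (TTANGTAA), searched on both strands, and no marked matches overlap.
Arntl: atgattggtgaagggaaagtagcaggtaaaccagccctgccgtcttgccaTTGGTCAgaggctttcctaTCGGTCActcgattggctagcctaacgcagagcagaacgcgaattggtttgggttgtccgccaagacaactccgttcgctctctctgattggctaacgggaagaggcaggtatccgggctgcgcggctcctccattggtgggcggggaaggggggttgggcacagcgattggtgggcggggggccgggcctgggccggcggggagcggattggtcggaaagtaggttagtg
Per1: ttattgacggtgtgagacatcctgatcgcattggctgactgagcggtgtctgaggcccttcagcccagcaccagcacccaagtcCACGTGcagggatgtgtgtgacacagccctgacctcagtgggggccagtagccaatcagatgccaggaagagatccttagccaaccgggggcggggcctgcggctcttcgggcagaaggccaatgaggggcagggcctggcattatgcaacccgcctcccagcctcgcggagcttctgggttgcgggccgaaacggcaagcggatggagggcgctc
Cry1: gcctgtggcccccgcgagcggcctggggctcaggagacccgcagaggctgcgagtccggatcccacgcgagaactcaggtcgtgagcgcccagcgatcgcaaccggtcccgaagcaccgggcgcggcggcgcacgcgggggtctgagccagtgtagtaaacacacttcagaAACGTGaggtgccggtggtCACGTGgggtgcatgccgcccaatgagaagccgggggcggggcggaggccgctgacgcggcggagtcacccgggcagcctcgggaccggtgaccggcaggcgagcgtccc
Per3: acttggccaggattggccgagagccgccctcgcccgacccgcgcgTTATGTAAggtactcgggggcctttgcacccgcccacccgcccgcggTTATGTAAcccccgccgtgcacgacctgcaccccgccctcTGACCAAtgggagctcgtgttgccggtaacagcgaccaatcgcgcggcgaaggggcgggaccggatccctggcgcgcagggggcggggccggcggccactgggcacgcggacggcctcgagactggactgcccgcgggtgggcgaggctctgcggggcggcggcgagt

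The Arntl window held 2 ROR element matches, beginning 200 and 181 bases before the start. Per1 had an E-box 166 bases before its start, and Cry1 had an E-box at 60 bases and a variant at 79 bases before its start. Per3 had 2 D-box matches, at 205 and 158 bases, and a ROR element match at 118 bases before its start. Of the 9 members with windows, 2 had an E-box, 4 an E-box or its variant, 3 a ROR element match and 1 a D-box. Windows of Clock, Npas2 and Dbp held none of these, and those of Npas2 and Cry1 no ROR element match. Over all 32851 windows of this length, 7.15% held an E-box, 4.68% the variant, 11.0% a ROR element match and 2.32% a D-box. Over all genes the shares were 8.09%, 5.44%, 12.4% and 2.72%. The core of the antioxidant response element that NRF2 binds was searched as TGACNNNGC on both strands. It matched in windows of 3 of the 9 members, Per1, Cry1 and Cry2, against 14.0% of all genes and 12.4% of all windows. A match is a description of the letters and not evidence of binding.

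The targeted gene was checked first. The brighter Nfe2l2 probe set read at an intensity of 5.74, 7.40 and 6.90 in knockout pools 1 to 3 and 696, 598 and 625 in wild-type pools 1 to 3, matching all 6 labels. Hepatocyte transcripts dominated every pool, with summed intensities of 7 markers, Alb, Apoa1, Ttr, Cps1, Cyp2e1, Ass1 and Fgb, between 69745 and 75798. The trimmed mean intensity of an array was 92.0 to 131. Signal from the 3′ end of actin over that from its 5′ end, a check of RNA integrity, stood at 1.942, 1.964 and 2.005 in the knockout against 1.772, 1.936 and 1.878 in the wild type. All knockout values thus lay above all wild-type values. The same ratio for Gapdh overlapped, at 0.784, 0.725 and 0.793 in the knockout against 0.756, 0.767 and 0.756 in the wild type. The part of RNA integrity in the clock gene values was not tested. Since these are bulk livers, fewer cells of a type and less RNA per cell cannot be told apart.

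At its brightest tested probe set, no clock gene differed between Nrf2 knockout and wild-type liver beyond the spread between pools. There 4 of 9 genes were higher and 5 lower in the knockout, with a median log2 difference of -0.08, against 0.01 over all 11102 genes tested, of which 48.6% were lower. None passed by limma with Benjamini-Hochberg adjustment at 0.05, where 0.144% of all genes and 0.142% of all probe sets passed, and 0 of 9 reached an unadjusted p under 0.05, where 8.22% of all genes did (4.07% higher and 4.15% lower). The groups of 3 pools overlapped for all 9 genes, while they did not overlap for 13.9% of all genes. For each of the 9 the genotype difference was smaller than the wider of the within-genotype ranges of pools. Overlapping groups make this likely by themselves, and the share of all genes for which it holds was not computed. Of the 16 tested probe sets 8 were lower, against 49.2% of all tested probe sets. Over all 23 probe sets, the 7 dim ones fitted without the filter, 14 were lower and 9 higher, and adjusted p-values ran from 0.661 to 0.997. These intervals are wide for several genes, so a difference of the size shown by their bounds was not detectable here.

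**Figure D1:**
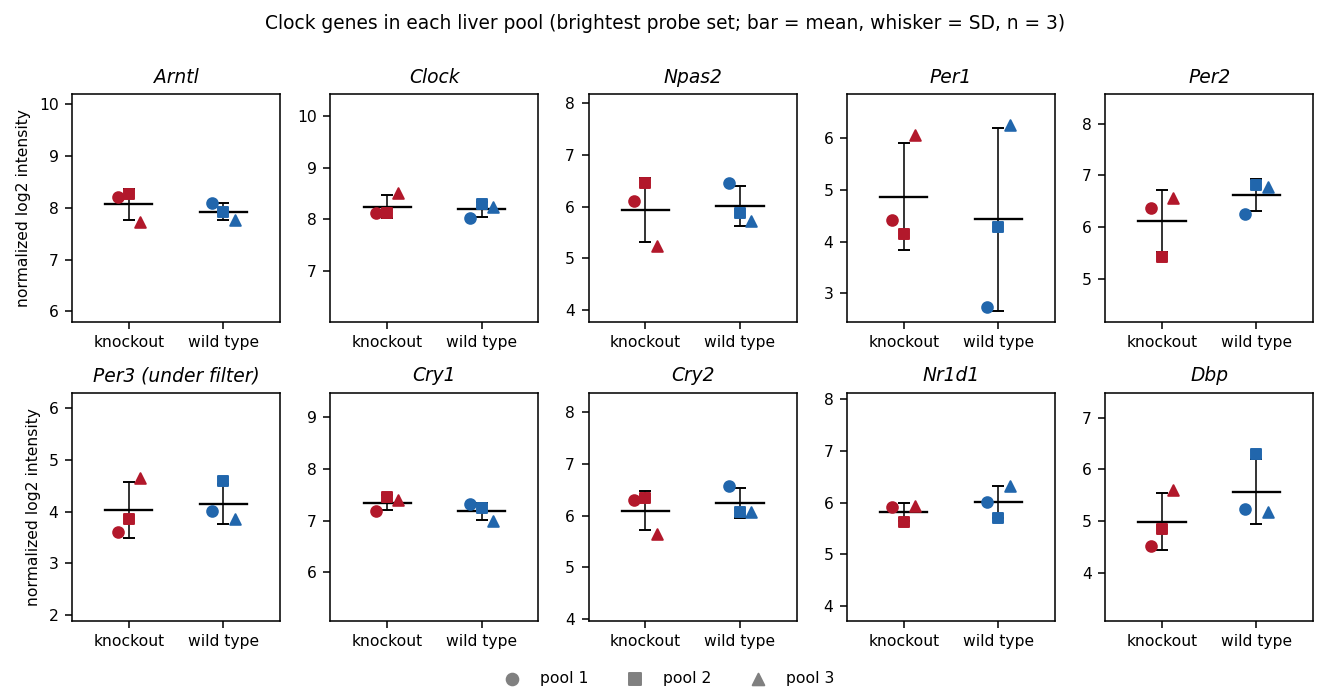
Normalized log2 intensity (vertical axis, 4.4 log2 units in every panel) of the brightest probe set of each clock gene in the 3 knockout (red) and 3 wild-type (blue) pools, with the pool number as the symbol, the mean as a bar and the SD as a whisker. The groups overlap in every panel, and Per1 has the widest spread, with pool 3 of each genotype on top.

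Arntl, the activator that drives the loop, read at a normalized log2 value of 8.20, 8.27 and 7.72 in knockout pools 1 to 3 and at 8.10, 7.92 and 7.76 in wild-type pools 1 to 3. Both genotypes had their lowest value in pool 3, and the groups overlapped. The difference was 0.14 ± 0.17 (SE, n = 3 per genotype; 95% interval -0.24 to 0.52; limma adjusted p = 0.887). A second, dimmer Arntl probe set lay between 5.39 and 5.77 and had its highest value in knockout pool 3, the reverse of the brighter one, with a difference of 0.08 ± 0.18.

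Npas2, which can stand in for Clock as the partner of ARNTL, moved more between pools. Its normalized log2 values were 6.10, 6.45 and 5.24 in the knockout against 6.45, 5.87 and 5.72 in the wild type. Knockout pool 2 and wild-type pool 1 were level at the top and knockout pool 3 was lowest. The second Npas2 probe set put the same 2 pools on top, at 5.60 and 5.29, and knockout pool 3 lowest, at 4.58. The genotype difference was -0.08 ± 0.32 (SE, n = 3 per genotype; 95% interval -0.80 to 0.64; limma adjusted p = 0.972) at the brighter probe set and 0.24 ± 0.30 at the other, so the sign depended on the probe set. The sign at the brighter one also turned on leaving out knockout pool 3 (0.26) or wild-type pool 1 (0.13).

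Clock itself varied little. Its brightest probe set read at 8.12, 8.11 and 8.51 in the knockout against 8.03, 8.30 and 8.24 in the wild type on the normalized log2 scale. The highest value was in knockout pool 3, where Arntl and Npas2 were lowest. The difference was 0.06 ± 0.14 (SE, n = 3 per genotype; 95% interval -0.26 to 0.38; limma adjusted p = 0.955), but with median centring of the arrays it turned to -0.0043, and it was also below 0 on leaving out knockout pool 3 (-0.072) or wild-type pool 1 (-0.023). Of the 4 Clock probe sets 2 were lower in the knockout against 2 higher, the other differences being -0.15, 0.12 and -0.06.

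Among the repressors, the Period genes gave both the widest spread and the largest mean differences. Per1 had deposited intensities of 14.0, 11.5 and 65.8 in knockout pools 1 to 3 and 1.87, 11.3 and 82.2 in wild-type pools 1 to 3. Pool 3 of each genotype stood above the other 4 pools, which were dim. On the normalized log2 scale these values were 4.41, 4.15 and 6.05 in the knockout against 2.74, 4.28 and 6.26 in the wild type. The genotype difference was 0.44 ± 0.83 (SE, n = 3 per genotype; 95% interval -1.44 to 2.33; limma adjusted p = 0.941), an interval that reaches past 2 log2 units on 1 side. Without wild-type pool 1, the dimmest, the sign turned, to -0.40.

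Per2 read at a normalized log2 value of 6.37, 5.43 and 6.56 in the knockout against 6.26, 6.82 and 6.78 in the wild type. Knockout pool 2 was lowest, and the other 5 pools lay within 0.56 log2 of each other. The difference was -0.50 ± 0.30 (SE, n = 3 per genotype; 95% interval -1.18 to 0.17; limma adjusted p = 0.744). It was -0.16 without knockout pool 2 and -0.72 without knockout pool 3, the extremes on leaving out 1 pool. The second Per2 probe set read at 4.44, 4.76 and 4.74 in the knockout against 5.07, 5.29 and 4.94 in the wild type. All knockout values there lay under all wild-type values, the single such case among the 16 tested probe sets, while groups did not overlap at 13.4% of all tested probe sets. The difference was -0.45 ± 0.21 with an adjusted p of 0.661 (limma, unadjusted p = 0.0569). The third, dim Per2 probe set showed a difference of -0.02.

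Per3 was dim at all 6 of its probe sets, with no deposited intensity above 25.9. At the brightest on average, deposited intensities were 6.26, 8.39 and 21.3 in the knockout against 13.1, 14.9 and 10.8 in the wild type, with overlapping groups and a difference of -0.11 ± 0.36. At another probe set of this gene they were 8.78, 6.89 and 3.20 in the knockout against 25.9, 17.8 and 12.9 in the wild type. There the groups did not overlap, as at 11.7% of all 45037 probe sets, and the difference was -0.96 ± 0.35 (SE, n = 3 per genotype; 95% interval -1.76 to -0.16), with an adjusted p of 0.718 by limma when all 45037 probe sets were fitted. Of the 6 probe sets 5 were lower in the knockout, against 49.4% of all probe sets in that fit. The 6 share 1 gene and are not replicates, and knockout pool 3 was the highest pool at the first of these probe sets and the lowest at the second.

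The cryptochrome genes, whose products repress ARNTL and CLOCK directly, were each measured by 1 probe set. Cry1 read at a normalized log2 value of 7.18, 7.46 and 7.40 in the knockout against 7.31, 7.25 and 7.001 in the wild type. Cry2 was at 6.30, 6.33 and 5.65 in the knockout against 6.58, 6.06 and 6.08 in the wild type. Cry2 was lowest in knockout pool 3 and highest in wild-type pool 1, as Npas2 nearly was, while Cry1 was lowest in wild-type pool 3. The genotype difference was 0.16 ± 0.14 for Cry1 and -0.14 ± 0.23 for Cry2 (SE, n = 3 per genotype; limma adjusted p = 0.828 and 0.925). The Cry2 difference turned to 0.078 without knockout pool 3 and to 0.026 without wild-type pool 1.

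Nr1d1, the repressor of the second loop, read at a normalized log2 value of 5.91, 5.62 and 5.93 in the knockout against 6.01, 5.71 and 6.32 in the wild type. Pool 2 of each genotype was lowest and wild-type pool 3 highest. The difference was -0.19 ± 0.19 (SE, n = 3 per genotype; 95% interval -0.63 to 0.25; limma adjusted p = 0.863).

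Dbp, the output factor, was at 4.51, 4.85 and 5.60 in the knockout against 5.23, 6.29 and 5.17 in the wild type at its brighter probe set. Wild-type pool 2 was highest and knockout pool 1 lowest, with knockout pool 3 above 2 of the 3 wild-type pools. The difference was -0.58 ± 0.37 (SE, n = 3 per genotype; 95% interval -1.41 to 0.26; limma adjusted p = 0.758), the largest decrease among the 9 tested genes. At the dimmer Dbp probe set the sign turned, with values of 4.34, 4.55 and 5.18 in the knockout against 4.19, 4.78 and 4.13 in the wild type and a difference of 0.32 ± 0.30. That probe set lay just inside the filter, at a mean log2 value of 4.53 against a cutoff of 4.48. The brightest Per3 probe set lay below the cutoff, at 4.09. At the brighter Dbp probe set the difference was -0.21 without wild-type pool 2 and -0.88 without knockout pool 3, the extremes on leaving out 1 pool. It was -0.13 with the mean of both probe sets and -1.08 without pool 3 of both genotypes, an alternative chosen after seeing the data (limma adjusted p = 0.973 and 0.444).

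**Figure D2:**
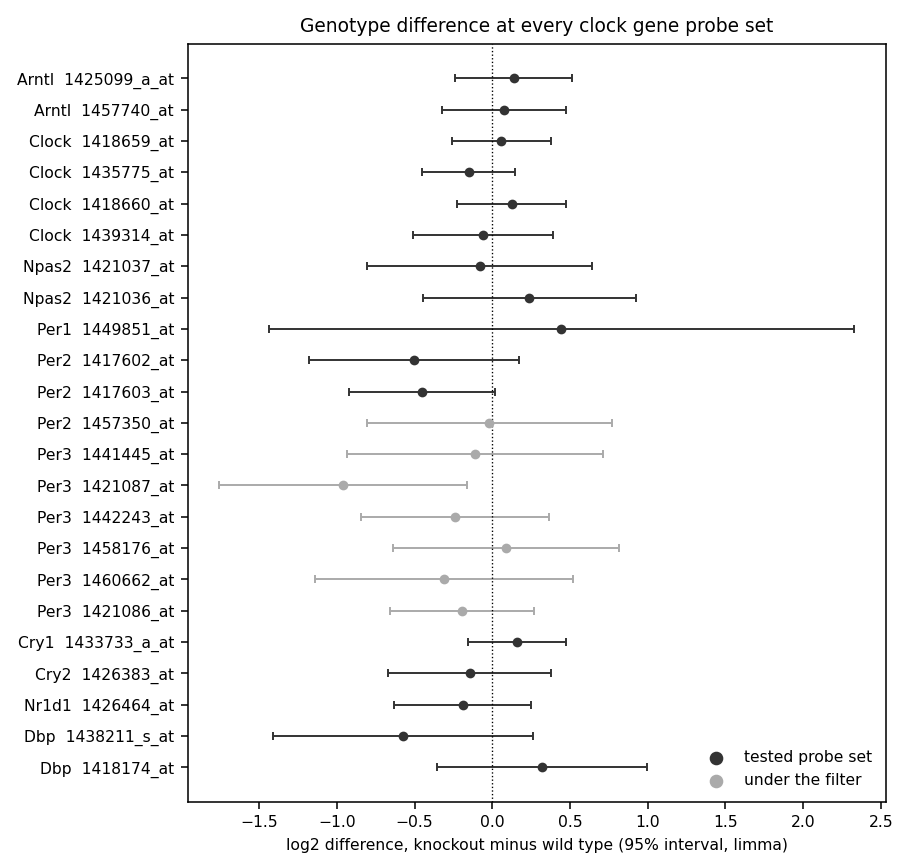
Log2 difference between knockout and wild type (horizontal axis) at each of the 23 clock gene probe sets, with 95% intervals from limma, dark for tested probe sets and grey for those under the filter. All intervals of tested probe sets include 0, that of Per1 being the widest (-1.44 to 2.33).

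Pools of the same genotype differed widely in some clock genes and little in others. The SD over the 6 pools was 1.32 log2 for Per1, above that of 99.8% of the 11102 genes, 0.62 for Dbp (97.2%), 0.51 for Per2 (94.96%) and 0.46 for Npas2 (93.0%), against a median of 0.19. Clock and Cry1, at 0.17 and 0.16, stayed under that median. Dim probe sets vary more, which bears on Per1, whose mean log2 value was at the 52.9th percentile of all probe sets. To place each pool, the mean deviation of the rhythmic day-to-evening genes Nr1d1, Dbp, Per1 and Per2 from their mean over 6 pools was taken from that of Arntl, Clock, Npas2 and Cry1. This index was 0.29, 0.75 and -0.63 in knockout pools 1 to 3 and 0.60, -0.25 and -0.76 in wild-type pools 1 to 3. Knockout pool 2 and wild-type pool 1 had the highest index and pool 3 of each genotype the lowest. This order is not that of Arntl alone, which was higher in knockout pool 1 (8.20) than in wild-type pool 1 (8.10). The high index of wild-type pool 1 rested on Per1, which was dimmest there, at a deposited intensity of 1.87. The index ranged over 1.38 in the knockout against 1.36 in the wild type, of 1.51 over all pools. Without Per1 the index was 0.30, 0.76 and -0.32 in the knockout against 0.13, -0.45 and -0.42 in the wild type, which brought wild-type pool 2 to the low end and left a range of 0.58 in the wild type and 1.08 in the knockout, of 1.21 in all. The mean index was 0.28 higher in the knockout, within a pooled SD of 0.69 among pools of a genotype, and it depended on single pools: -0.032 without knockout pool 2, -0.034 without wild-type pool 3, 0.64 without wild-type pool 1 and 0.66 without knockout pool 3. Without Per1, a choice made after seeing the data, it was 0.49 against a pooled SD of 0.45, above that SD. The hour of collection is not known, and its part in these values was not tested.

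**Figure D3:**
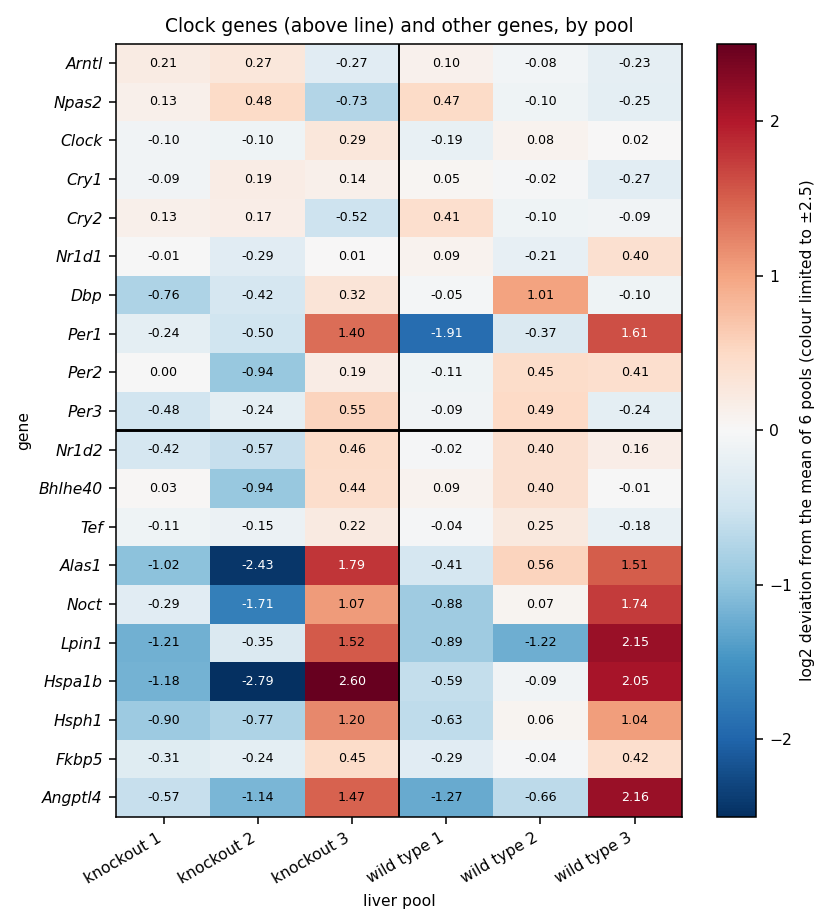
Log2 deviation of each gene from its mean over the 6 pools (colour and printed values), in columns for the 3 knockout and 3 wild-type pools, with the 10 clock genes above the line and 10 other genes, chosen after their values were seen, below it. Columns knockout 3 and wild type 3 are alike in Per1 (1.40 and 1.61), Alas1, Noct, Lpin1 and Hspa1b, while knockout 2 is lowest for Per2 (-0.94) and Hspa1b (-2.79).

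Over the pools, correlations of the other members with Arntl had both signs, in 9 relations tested together. Each gene was taken at its brightest probe set only. The dimmer Arntl probe set was highest in knockout pool 3 (5.77), where the brighter one was lowest (7.72), and was not used. The signs below therefore hold for the brightest probe sets, and those at other probe sets were not tested. Npas2 had the highest positive correlation with Arntl, with Pearson's r = 0.89 (exact permutation p = 0.0208, adjusted over 9 relations 0.119; Spearman's rho = 0.94, exact permutation p = 0.0167, adjusted 0.150; n = 6 pools). Cry2 was at r = 0.79 (exact permutation p = 0.0528, adjusted 0.119; rho = 0.77, p = 0.103, adjusted 0.263) and Cry1 at r = 0.34 (p = 0.507, adjusted 0.507; rho = 0.26, p = 0.658, adjusted 0.658). The negative side held the day and evening genes and Clock. Per2 was at r = -0.77 (exact permutation p = 0.0472, adjusted 0.119; rho = -0.71, p = 0.136, adjusted 0.263), Per1 at r = -0.74 (p = 0.0931, adjusted 0.168; rho = -0.66, p = 0.175, adjusted 0.263) and Clock at r = -0.80 (p = 0.0528, adjusted 0.119; rho = -0.77, p = 0.103, adjusted 0.263). Per3, Dbp and Nr1d1 were at r = -0.63, -0.59 and -0.55 (exact permutation p = 0.208, 0.219 and 0.263, adjusted 0.282, 0.282 and 0.295; rho = -0.54, -0.66 and -0.60, p = 0.297, 0.175 and 0.242, adjusted 0.334, 0.263 and 0.311). None passed after adjustment. Ranked among the r of all 11102 tested genes with Arntl, Npas2 was at percentile 97.5, Cry2 at 92.8 and Cry1 at 65.5. On the negative side Nr1d1 was at 15.3, Dbp at 13.2, Per1 at 7.2, Per2 at 5.8 and Clock at 4.7. Many genes outside the clock thus had r as far from 0. Without knockout pools 2 and 3, the farthest from the Arntl median, r was 0.77 for Npas2, 0.70 for Cry2, -0.85 for Per2, -0.70 for Per1 and -0.71 for Clock over the 4 pools left. For Cry1, Per3, Dbp and Nr1d1 it was then 0.65, -0.37, -0.50 and -0.47. Within genotypes, with each genotype's mean taken out and pools permuted inside each genotype, a test chosen after seeing the data, r was 0.98 for Npas2, 0.95 for Cry2, -0.93 for Clock and -0.86 for Per1. Their exact permutation p were 0.0278, 0.0556, 0.0833 and 0.0278, and 0.125, 0.167, 0.188 and 0.125 when adjusted over the 9 relations, where 0.0278 is the smallest p that 36 arrangements can give. For Per2, Per3, Dbp, Nr1d1 and Cry1 r was -0.75, -0.62, -0.52, -0.48 and 0.21, with exact permutation p of 0.25, 0.333, 0.333, 0.333 and 0.694 (adjusted 0.375 for the first 4 and 0.694 for Cry1).

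**Figure D4:**
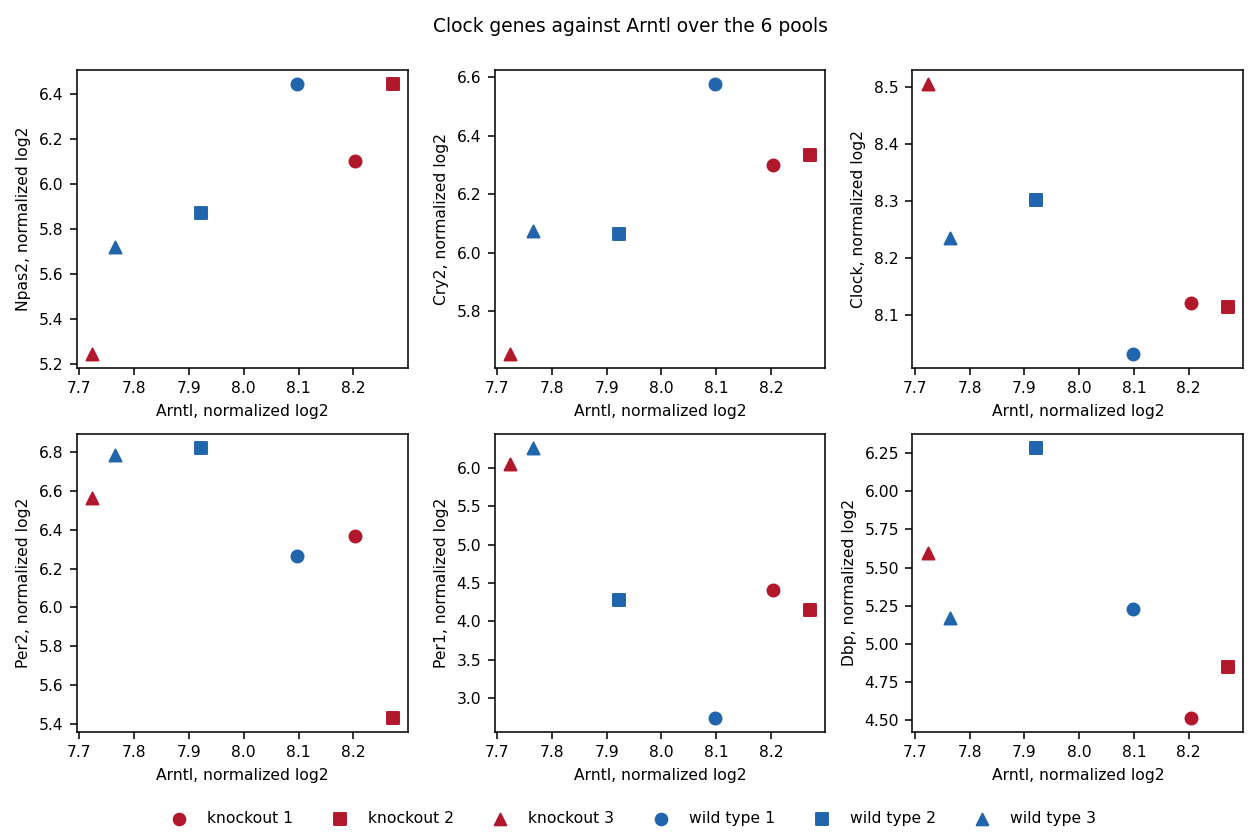
Normalized log2 intensity of Npas2, Cry2, Clock, Per2, Per1 and Dbp (vertical axes) against that of Arntl (horizontal axes), with 1 point for each of the 6 pools, red for knockout and blue for wild type and the pool number as the symbol. Each gene is shown at its brightest probe set only. Npas2 and Cry2 rise with Arntl (r = 0.89 and 0.79) and the other 4 fall (r = -0.80, -0.77, -0.74 and -0.59), and points of both colours are interspersed.

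Of the other 11093 tested genes, those whose pattern over the 6 pools was most like that of Arntl were Nkiras2, Lonrf3 and Pwwp3a, at r = 0.997, 0.994 and 0.991, and those most opposed were Hnf4a, Fam71d and Bag3, at r = -0.996, -0.987 and -0.985. With 6 pools and so many genes, values this near to 1 are given as a description only. Lonrf3 ranged from 6.48 in knockout pool 3 to 7.29 in knockout pool 2 on the normalized log2 scale. Bag3, a co-chaperone of the heat shock proteins, ran the other way, at 9.03 in knockout pool 3 and 7.05 in knockout pool 2. Hnf4a, a nuclear receptor that maintains hepatocyte identity, was at 11.29 in knockout pool 3 and 10.91 in knockout pool 2.

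The wider set of clock loop genes gave no called member. Of 18 such genes 12 were tested, 3 higher and 9 lower in the knockout, with a median of -0.03, while 48.6% of all genes were lower. By limma 0 passed, against 0.144% of all genes, and 1 had an unadjusted p under 0.05, against 8.22%. Groups did not overlap for 2 of the 12, against 13.9% of all genes. Rora, which activates through the elements that NR1D1 blocks, had normalized log2 values of 8.95, 9.19 and 9.04 in the knockout against 8.85, 8.51 and 8.81 in the wild type. Its groups did not overlap, and the difference was 0.34 ± 0.12 (SE, n = 3 per genotype; limma adjusted p = 0.599). These values are from the brightest of 7 tested Rora probe sets, and the others are not given here. Nr1d2, the close relative of Nr1d1, was at 8.64, 8.50 and 9.53 in the knockout against 9.04, 9.46 and 9.22 in the wild type, a difference of -0.35 ± 0.25. Bhlhe40, an E-box repressor, was at 9.45, 8.48 and 9.86 in the knockout against 9.52, 9.82 and 9.41 in the wild type, a difference of -0.32 ± 0.30. Both were lowest in knockout pool 2 and highest in knockout pool 3, the pools that also had the lowest Per2 and the lowest Arntl. Fbxl21, a ligase subunit that acts on CRY proteins, was dim and at -0.52 ± 0.23 with separate groups, and Cipc, an inhibitor of CLOCK, was at -0.18 ± 0.13.

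Among 16 liver genes known as clock outputs 14 were tested, 4 higher and 10 lower, with a median of -0.18, while 48.6% of all genes were lower. By limma 0 passed, against 0.144% of all genes. At an unadjusted limma p under 0.05 there were 1 higher and 1 lower, against 4.07% and 4.15% of all genes. Groups did not overlap for 1 of the 14, Elovl3, against 13.9% of all genes. Upp2, a uridine phosphorylase, was at 0.37 ± 0.14 and Elovl3, a fatty acid elongase, at -0.44 ± 0.19 with separate groups (limma adjusted p = 0.607 and 0.649). Rgs16, a regulator of G protein signalling, was at -1.12 ± 0.60, Nampt, which makes an NAD precursor, at -0.24 ± 0.13 and the receptor gene Nr1i3 at -0.44 ± 0.23. The spread between pools was wide for genes chosen after their values were seen. Alas1, the first enzyme of heme synthesis, had deposited intensities of 560, 227 and 5082 in the knockout against 1224, 1771 and 4443 in the wild type. Noct, which encodes nocturnin, was at 90.5, 33.8 and 307 in the knockout against 82.2, 115 and 526 in the wild type. Lpin1, a phosphatidate phosphatase, was at 248, 494 and 2204 in the knockout against 450, 247 and 3530 in the wild type. In each of these 3 genes pool 3 of both genotypes held the highest values, as for Per1, and knockout pool 2 was lowest for Alas1 and Noct. The genotype differences were -1.11 ± 0.93, -0.62 ± 0.77 and -0.02 ± 0.92, none of which passed. Gys2, the liver glycogen synthase, also chosen after its values were seen, showed no such gap, at 438 to 794 over the 6 pools.

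Genes that answer to the systemic cues of the liver clock were set beside these. Of 9 temperature and heat shock genes 7 were tested, 2 higher and 5 lower in the knockout with a median of -0.15. By limma 0 passed, against 0.144% of all genes, and 0 reached an unadjusted p under 0.05, against 8.22%. Hspa1b, an inducible chaperone, had deposited intensities of 363, 128 and 6398 in the knockout against 787, 791 and 4666 in the wild type. Hsph1, its nucleotide exchange partner, was at 271, 328 and 1557 in the knockout against 477, 540 and 1471 in the wild type. Cirbp, an RNA-binding protein gene that is raised by cold, went the other way, at 114, 112 and 91.3 in the knockout against 137, 86.6 and 50.5 in the wild type. Pool 3 of each genotype was highest for both chaperones. Differences were -0.92 ± 1.22 for Hspa1b, -0.32 ± 0.58 for Hsph1, 0.45 ± 0.33 for Cirbp, -0.42 ± 0.31 for Hspa8 and -0.09 ± 0.34 for Hsp90aa1.

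Of 8 glucocorticoid-responsive genes all were tested, 5 higher and 3 lower with a median of 0.08. By limma 0 passed, against 0.144% of all genes. At an unadjusted limma p under 0.05 there were 2 higher and 1 lower, against 4.07% and 4.15% of all genes. Groups did not overlap for 2 of the 8, Mt1 and Ddit4, against 13.9% of all genes. The metallothionein genes Mt1 and Mt2 were at 2.67 ± 0.67 and 2.56 ± 0.89 (limma adjusted p = 0.376 and 0.570), and Ddit4, a stress-induced inhibitor of growth signalling, was at -0.62 ± 0.24 with separate groups. Tsc22d3 and Sgk1 were at -0.44 ± 0.34 and 0.23 ± 0.15. Fkbp5, a cochaperone of the glucocorticoid receptor chosen after its values were seen, had deposited intensities of 103, 117 and 225 in the knockout against 147, 122 and 235 in the wild type. It was highest in pool 3 of each genotype, with a genotype difference of -0.06 ± 0.24, while Tat, another gene of this list chosen in the same way, was highest in wild-type pool 3 and knockout pool 2.

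Of 13 feeding and fasting genes 11 were tested, 7 higher and 4 lower with a median of 0.12. By limma 0 passed, against 0.144% of all genes. Of all genes 8.22% had an unadjusted p under 0.05, and here 2 did, both higher. Those were the coactivator gene Ppargc1a, at 0.79 ± 0.24, and the insulin receptor substrate gene Irs2, at 0.66 ± 0.27 (limma adjusted p = 0.514 and 0.631). Fasn, G6pc and Fgf21 were at -0.24 ± 0.17, -0.28 ± 0.21 and -0.40 ± 0.39. Angptl4, a fasting-induced inhibitor of lipoprotein lipase chosen after its values were seen, had deposited intensities of 114, 82.1 and 625 in the knockout against 97.2, 106 and 1067 in the wild type. Pool 3 of each genotype was highest, and the genotype difference was -0.16 ± 0.91. Ppargc1a, Pck1 and Cpt1a were also highest there on the normalized log2 scale. Pdk4 went the other way, with intensities of 148, 212 and 78.9 in the knockout against 247, 137 and 78.5 in the wild type. Srebf1 was also lowest in pool 3 of each genotype. The rest of the list was mixed.

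Marker transcripts of other cells were compared over the same pools. The summed intensity of 3 red blood cell markers, Alas2, Hba-a1 and Slc4a1, was 715, 930 and 175 in the knockout against 1418, 978 and 272 in the wild type, lowest in pool 3 of each genotype. Kupffer cell markers, 6 in number, summed to 4542 to 4948 in the knockout against 3960 to 6345 in the wild type, and 5 sinusoidal endothelial markers to 1736 to 2286 and 1652 to 2454. Endothelial mean log2 values were separate, at 8.05, 8.17 and 8.13 in the knockout against 8.04, 7.92 and 8.02 in the wild type, with 3 of 5 markers higher. Stellate cell markers, 5 in number, summed to 2078 to 2688 in the knockout against 1638 to 2599 in the wild type, and the 4 cholangiocyte markers to 49.3 to 84.0 and 67.9 to 126. The summed stellate intensities overlapped, but the mean log2 value of these markers did not, at 7.53, 7.48 and 7.29 in the knockout against 7.20, 6.95 and 7.10 in the wild type. All 5 stellate markers were higher in the knockout, with a median of 0.22, none passed, and their part in the clock gene values was not tested. Lymphocyte markers, also 5, summed to 265 to 430 in the knockout against 256 to 639 in the wild type. No marker was at 0 in the deposited values. Of the 29 tested markers 0 passed by limma, against 0.144% of all genes. An unadjusted p under 0.05 was reached by 1, Des, against 8.22% of all genes. How often the means of other gene sets separate was not computed. The summed red blood cell intensity, mostly Alas2, was lowest in the pools where Per1, Alas1 and Lpin1 were highest. The part of red blood cells in those values was not tested.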

How the data were processed

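Liver RNA was labelled with biotin and hybridised to 1-colour Affymetrix arrays, per the labels' protocols. The authors deposited linear probe set intensity values, and used GCOS 1.4, per the submitters' processing notes, with a signal algorithm and scaling not given in the sources used here. Gene symbols come from the platform annotation, updated through Entrez identifiers. Values were taken as log2(intensity + 5.26), the 25th percentile of all values, and quantile normalized. The pseudocount understates differences of dim probe sets. Non-control probe sets with a mean log2 value at or above the median were tested (22519, of which 32, or 0.142%, passed) with limma 3.58.1 in R 4.3.3 (lmFit, eBayes with an intensity trend), Benjamini-Hochberg adjustment over all and a threshold of 0.05. A gene took its brightest tested probe set. Correlations used exact two-sided permutation over pairings. The procedure was tested on simulated data. The number of arrays limits the precision.

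The members and lists were chosen with earlier results of these data known. Named genes were all members, Nfe2l2, up to 5 genes of each list with the smallest p, and the 3 genes most like and most opposed to Arntl; others are said to have been chosen after their values were seen.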

Additional observations from a re-analysis of the deposited data

How the results depend on the processing

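The count of 0 clock genes passing held in all 15 alternatives, with a lowest adjusted p from 0.444 to 0.938 (5 members were tested with the filter at the 70th percentile, and 8 without pool 3 of either or both genotypes, since the others fell under the filter and gave no value there). Arntl, Per2, Cry1, Nr1d1 and Dbp kept their sign in every alternative that gave a value, with ranges, rounded to the nearest, of 0.03 to 0.31, -0.72 to -0.16, 0.04 to 0.24, -0.34 to -0.04 and -1.08 to -0.13. Clock turned to -0.0043 with median centring, -0.0072 with the mean of probe sets and -0.049 without pool 3 of both genotypes, an alternative chosen after seeing the data, in which Npas2 turned to 0.12. Npas2 was 0.077 with the mean of probe sets. Leaving out each pool in turn gave -0.072 to 0.12 for Clock, -0.34 to 0.26 for Npas2, -0.26 to 0.078 for Cry2, -0.40 to 0.81 for Per1 and -0.034 to 0.66 for the index difference, and the cause was not tested. The 32 probe sets passing became 20 when dim probe sets were kept, 19 when the filter was raised to the 70th percentile and 18 when no trend was fitted, against 41 with median centring, 40 with array weights and 42 without pool 3 of both genotypes. Leaving out 1 pool gave 18 to 29, with 19 on dropping either of knockout pools 1 and 2 and 18 on dropping wild-type pool 2. With the replicate number as a block 32 probe sets and 0 clock genes passed, and it changed no call of a member. Pools of the same number shared deviations with r = 0.13, 0.05 and 0.25 over tested probe sets, so the numbers were not taken as pairs. Over the 9 tested clock genes these were 0.67, -0.17 and 0.71, and knockout pool 2 was most like wild-type pool 1 (r = 0.83). Dim probe sets, all of Per3 among them, limit what the arrays resolve.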
